A study of Mus musculus with 7 samples.

Results

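Hs3st4, Gpc6, Vcan, Pdgfrb and Il1r1 are 5 mouse genes that have been described in other cells as targets of TRF2 away from telomeres. They are examined here in muscle stem cells (MuSCs) among 21938 protein-coding genes. A gene was taken with 20 kb on either side, as drawn in GENCODE release M21 for mouse build mm10, and the MACS peaks inside that window were listed in 4 ATAC-seq and 3 CUT&Tag libraries. ATAC-seq cuts open chromatin with a transposase. CUT&Tag directs the transposase to an antibody, here against TRF2 or a control IgG.

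The 2 TRF2 libraries and the 1 IgG library were labelled as wild-type MuSCs of tibialis anterior muscle, 3 days after an injection of notexin, a toxin that destroys muscle fibres. The methods of the study give a shorter time after injury, name gastrocnemius as well, and describe the sorted mice as carrying a Pax7-driven Cre and a TdTomato reporter. The ATAC libraries were 2 Control and 2 TRF2KO samples of hind-limb MuSCs, labelled 0 h and with no injury named. TRF2KO stands for deletion of floxed Terf2 by a tamoxifen-induced Cre under Pax7, so other cells of the muscle keep the gene. The genotype field reads wild type for all 7 libraries, and the ATAC groups were taken from the titles. The alleles of the Control mice are not given in the labels, nor is the number of animals behind a library. Where nothing says that libraries came from separate animals, a p-value measures the spread between these libraries alone. The binding data thus come from injured muscle, and the ATAC data carry no injury label, so the assays may describe different states of the cell.

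TRF2 is a double-strand TTAGGG-binding protein of the shelterin complex, which caps chromosome ends. It has also been found at interstitial telomeric repeats and at G-quadruplex (G4) sequences, where runs of guanine can fold into a stacked structure. Apart from Hs3st4, which encodes an enzyme, the genes encode proteins of the cell surface and the matrix around it. Hs3st4 is a heparan sulfate 3-O-sulfotransferase, and Gpc6 is a glypican, a membrane-anchored proteoglycan that carries heparan sulfate chains. Vcan encodes versican, a hyaluronan-binding chondroitin sulfate proteoglycan of the extracellular matrix. Pdgfrb encodes a receptor tyrosine kinase for platelet-derived growth factor and is best known from pericytes and other mesenchymal cells. Il1r1 encodes the signalling receptor for interleukin-1.

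The genes differ widely in size. Hs3st4 (ENSMUSG00000078591.1) lies at chr7:123982869-124398989 on the plus strand, with 2 exons over 416 kb. Gpc6 (ENSMUSG00000058571.11) lies at chr14:116925315-117976544 on the plus strand, with 10 exons over 1051 kb. Vcan (ENSMUSG00000021614.16) lies at chr13:89655312-89742509 on the minus strand, with 13 exons over 87.2 kb. Pdgfrb (ENSMUSG00000024620.11) lies at chr18:61045150-61085061 on the plus strand, with 23 exons over 39.9 kb. Il1r1 (ENSMUSG00000026072.12) lies at chr1:40225080-40317257 on the plus strand, with 11 exons over 92.2 kb. The 5 windows cover 1887 kb, of which Gpc6 takes 1091 kb.

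The sequences under the TRF2 peaks come first, because they show what the binding calls rest on. Both TRF2 libraries listed a peak at only 1 place in the 5 windows, in intron 3 of Gpc6. The stretch that both peaks share is chr14:117386292-117386520 (plus strand), 229 bases of GRCm38, the assembly behind mm10. Capitals mark 2 or more consecutive CACAC units (none was read as GTGTG), and they fill 89.1% of it:

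Gpc6 intron 3, shared by both TRF2 libraries: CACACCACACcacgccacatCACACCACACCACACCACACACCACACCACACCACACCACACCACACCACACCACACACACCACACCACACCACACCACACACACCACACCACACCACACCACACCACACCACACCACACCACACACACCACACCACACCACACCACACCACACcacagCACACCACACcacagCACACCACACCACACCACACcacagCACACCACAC

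The 150 bases at both summits of this site are wholly masked as repeats in the assembly. The remaining TRF2 peaks of Gpc6 came from 1 library each. Below, capitals mark the letters TGANTCA (the form bound by AP-1), CAGCTG (an E-box, the form bound by myogenic factors such as MyoD), 1 telomeric TTAGGG unit, or a G4 pattern, searched on both strands as 4 runs of 3 or more G separated by 1 to 7 bases. The peak in intron 5 (chr14:117721950-117722161, TRF2 replicate 1) is shown for its G4 pattern, that in intron 4 (chr14:117546768-117546975, TRF2 replicate 2) for its single TTAGGG unit, and that in intron 7 (chr14:117930786-117931037, TRF2 replicate 2) because ATAC peaks of all 4 libraries cover it, all on the plus strand:

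Gpc6 intron 5, TRF2 replicate 1: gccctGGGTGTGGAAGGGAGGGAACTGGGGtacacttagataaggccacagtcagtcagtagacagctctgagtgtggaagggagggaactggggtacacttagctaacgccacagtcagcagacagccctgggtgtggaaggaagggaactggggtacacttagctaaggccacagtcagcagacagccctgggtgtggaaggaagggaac
Gpc6 intron 4, TRF2 replicate 2: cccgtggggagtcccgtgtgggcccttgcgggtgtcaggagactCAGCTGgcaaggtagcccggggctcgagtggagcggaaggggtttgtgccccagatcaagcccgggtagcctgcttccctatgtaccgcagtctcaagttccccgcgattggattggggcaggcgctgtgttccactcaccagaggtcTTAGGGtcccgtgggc
Gpc6 intron 7, TRF2 replicate 2: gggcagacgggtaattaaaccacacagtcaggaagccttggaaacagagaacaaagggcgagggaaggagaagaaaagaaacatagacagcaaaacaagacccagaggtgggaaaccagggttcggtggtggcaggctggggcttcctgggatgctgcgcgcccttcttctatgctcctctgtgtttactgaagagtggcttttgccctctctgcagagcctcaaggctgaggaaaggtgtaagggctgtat

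The peaks at the other members also came from 1 library each. They are shown because each overlapped an ATAC peak of at least 2 libraries: upstream of Hs3st4 (summit at -17934 bp from its start, chr7:123964931-123965104, plus strand), at the start of Vcan, and at 2 places in intron 1 of Il1r1 (chr1:40233268-40233534 and chr1:40275229-40275461, plus strand). The summit of the Vcan peak lies 40 bp past the annotated gene start and so outside the printed stretch. For Vcan only the 192 bases of the peak that precede the gene are printed, along the gene (chr13:89742510-89742701, minus strand):

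Hs3st4 upstream, TRF2 replicate 2: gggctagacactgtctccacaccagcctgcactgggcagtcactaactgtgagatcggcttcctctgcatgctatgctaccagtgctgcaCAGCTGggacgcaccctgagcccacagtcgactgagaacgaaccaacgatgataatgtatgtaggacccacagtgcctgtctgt
Vcan start, TRF2 replicate 1: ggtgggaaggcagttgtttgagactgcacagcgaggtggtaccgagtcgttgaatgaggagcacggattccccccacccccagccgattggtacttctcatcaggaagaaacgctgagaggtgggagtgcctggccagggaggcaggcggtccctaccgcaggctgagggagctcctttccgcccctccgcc
Il1r1 intron 1, first peak, TRF2 replicate 1: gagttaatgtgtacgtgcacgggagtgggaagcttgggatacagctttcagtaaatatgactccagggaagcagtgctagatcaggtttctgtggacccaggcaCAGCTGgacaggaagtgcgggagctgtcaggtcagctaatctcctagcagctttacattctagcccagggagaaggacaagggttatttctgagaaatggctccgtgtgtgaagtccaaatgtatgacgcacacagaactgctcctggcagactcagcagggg
Il1r1 intron 1, second peak, TRF2 replicate 1: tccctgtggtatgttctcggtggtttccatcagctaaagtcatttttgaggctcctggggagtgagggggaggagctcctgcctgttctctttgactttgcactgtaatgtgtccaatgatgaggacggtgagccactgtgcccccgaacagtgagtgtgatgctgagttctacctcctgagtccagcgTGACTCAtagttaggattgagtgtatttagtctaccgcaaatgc

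None of these stretches holds 2 or more telomeric units in a row.

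TRF2 peaks at the 5 genes were few, mostly weak and mostly seen in 1 library. Per 100 kb the windows held 0.318 peaks of TRF2 replicate 1 and 0.265 of replicate 2, and the genome 0.451 and 0.568. There were 6 peaks in TRF2 replicate 1, 5 in TRF2 replicate 2 and 1 in IgG. Gpc6 had 3, 4 and 1 of these, Il1r1 had 2, 0 and 0, Vcan had 1, 0 and 0, and Hs3st4 had 0, 1 and 0. Pdgfrb had none in any of the 3 libraries. Of the 11 TRF2 peaks, 2 overlapped a peak of the other TRF2 library, and they overlap each other. Over the whole lists, 60.4% of the peaks of replicate 1 and 48.4% of those of replicate 2 did so.

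Thus 1 of 5 members held a TRF2 region, defined as merged TRF2 peaks with a peak from both libraries. Of all 21938 protein-coding genes, 41.9% held such a region in the same kind of window. Among genes whose windows were of similar length (0.5 to 2 times that of the member), 49.9% held a region for Hs3st4 (1005 genes), 40% for Gpc6 (220 genes), 50.6% for Vcan (8269 genes), 41.1% for Pdgfrb (19967 genes) and 51.1% for Il1r1 (7714 genes). A peak of either library was present at 4 of 5 members, against 66.5% of all protein-coding genes. The 5 windows held 0.053 TRF2 regions per 100 kb, and the genome 0.272. With 5 genes these counts are descriptions, and no test was made.

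**Figure D1:**
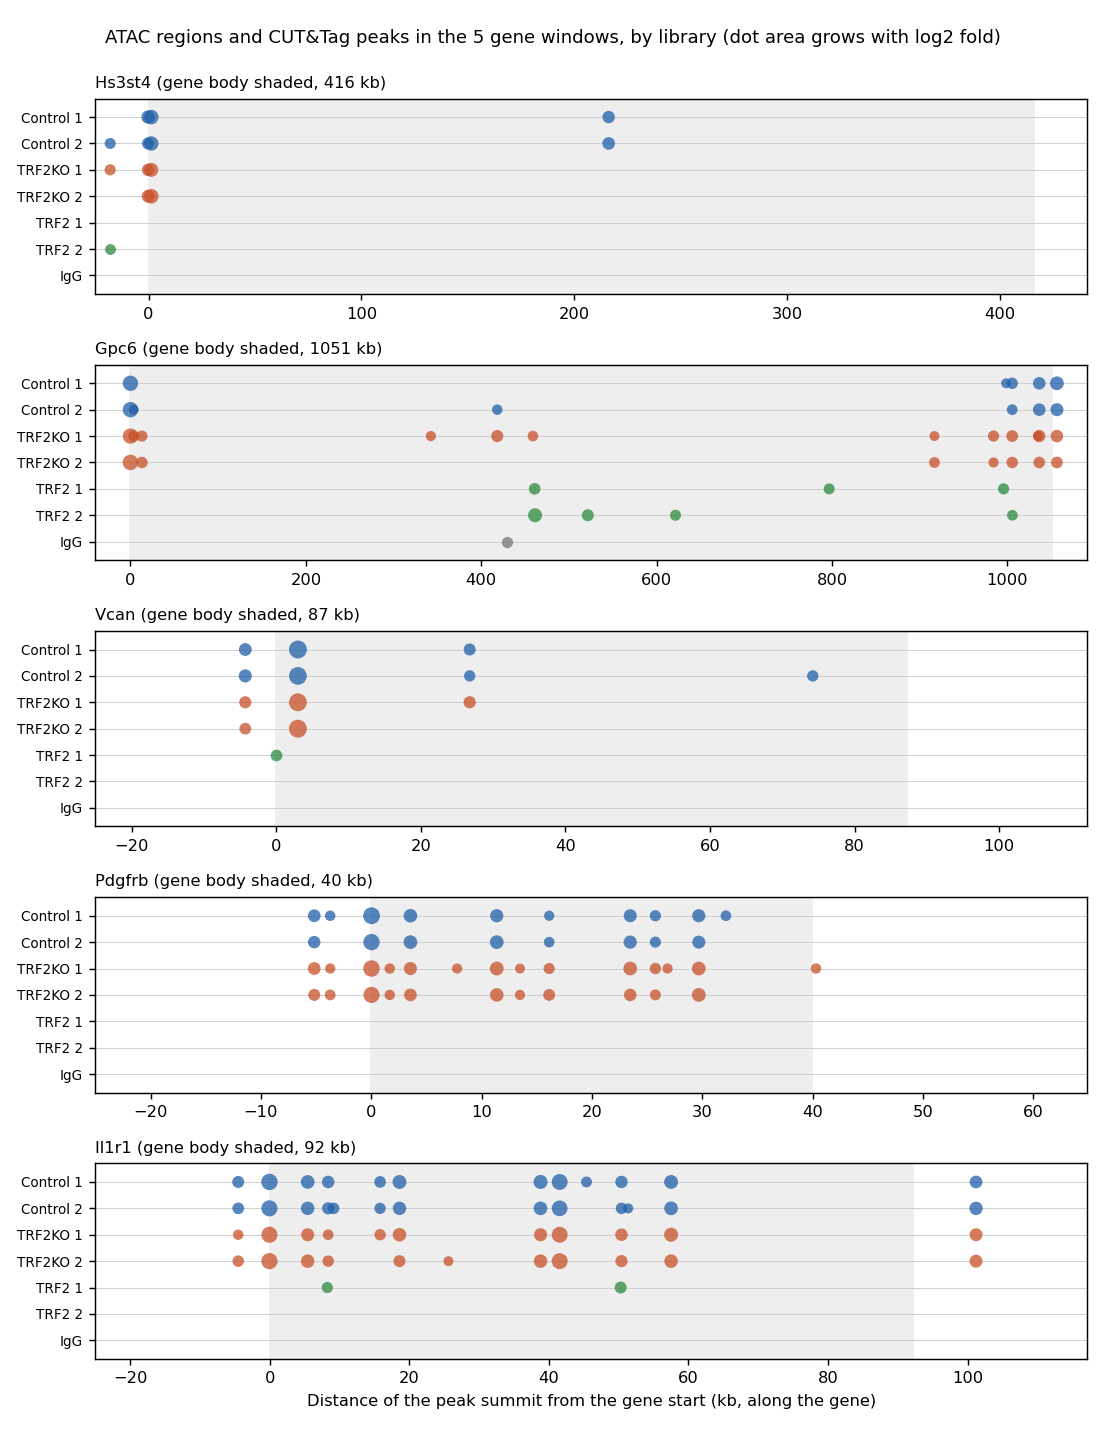
Positions of ATAC regions and CUT&Tag peaks along each of the 5 genes, as distance of the summit from the gene start in kb, with 1 row per library and the gene body shaded. An ATAC region is drawn once per library that lists a peak in it, and dot area grows with the log2 of the MACS fold. Gpc6 has the only position with dots in both TRF2 rows, near 461 kb, and Pdgfrb has none in the CUT&Tag rows.

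The strength of a CUT&Tag peak is given as the MACS fold at its summit, over local background, and as the number of fragments at the summit, solved from the fold and p. At the shared Gpc6 repeat the fold was 4.83 in TRF2 replicate 1, from 6 fragments, and 12.1 in replicate 2, from 19 fragments. The peaks spanned 352 and 474 bases, and their summits, 460922 and 461357 bp from the gene start, lay on either side of the printed stretch, so these values do not belong to a common point. The peak stood at the 30.2 percentile of folds in its list in replicate 1 and at the 98.02 percentile in replicate 2. Only the peak in replicate 2 reached a -log10 q of 5 (17.8, against 3.12 in replicate 1), and the other 10 TRF2 peaks at the 5 genes stayed below it. The share of each whole list that reached this value was not taken. By fold those 10 peaks stood between the 1.55 and the 47.2 percentile of their own lists. No ATAC peak of any of the 4 libraries, by MACS, GoPeaks or SEACR, covered either peak of the shared Gpc6 site. The nearest ATAC region was 1.68 kb away.

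The peaks at the other members rested on 4 to 10 fragments. At the start of Vcan the fold was 4.79 from 10 fragments, with the summit 40 bp from the annotated start. In intron 1 of Il1r1 the fold was 4.12 from 7 fragments 8237 bp from the start, and 5.41 from 9 fragments 50284 bp from it. Upstream of Hs3st4 it was 3.67 from 4 fragments. These 4 peaks lay in ATAC regions, and so did the Gpc6 peak in intron 7, with a fold of 3.52 from 5 fragments. In all, 5 of 11 TRF2 peaks overlapped an ATAC peak, against 84.7% of all peaks of TRF2 replicate 1 and 77.9% of those of replicate 2. The 6 that did not were all in Gpc6. Within 3 kb of an annotated transcript start lay 2 of the 11, that of Vcan and that upstream of Hs3st4, which is 2.95 kb from a start of the noncoding gene Gm26974. The share of all TRF2 peaks so near a start was not taken.

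Among the TRF2 peaks at the 5 genes, the shared Gpc6 site stood apart in tandem repeats of units of up to 6 bases. It did not in masked sequence, since the summit of the printed Gpc6 peak in intron 4 was also 100% masked. After this was seen, each summit was described by the share of distinct 6-base words in its central 150 bases, which is low in tandem repeats. The share was 21.4% at the summit of the Gpc6 site in TRF2 replicate 1 and 8.97% at that in replicate 2, where the median of either list was 95.2%. Only 1.77% and 0.497% of the peaks in those lists had a lower share. Next lowest among the TRF2 peaks at the 5 genes were the Gpc6 peak in intron 5 (60.7%) and the unprinted Gpc6 peak in intron 4 (62.1%). In their lists 6.55% and 9.88% of the peaks were lower. The printed intron 5 sequence repeats a unit longer than 6 bases, which the search for repeated units given below leaves out. The median of the IgG list was 45.2%. Stretches of at least 30 bases made of a repeated unit of up to 6 bases lay under 2.44% and 3.02% of TRF2 summits and under 15.9% of IgG summits. IgG listed no peak at the Gpc6 repeat, but its list held 656 peaks in all, and the part of mapping to repeats in this call was not tested. The 3 or more consecutive CACAC units of the Gpc6 region were found in 10 of 7414 TRF2 regions (0.135%, exact 95% interval 0.0647 to 0.248, counting error only). Of single peaks they were in 0.122% of TRF2 replicate 1, 0.323% of TRF2 replicate 2 and 0.61% of IgG (4 of 656, interval 0.166 to 1.55).

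**Figure D2:**
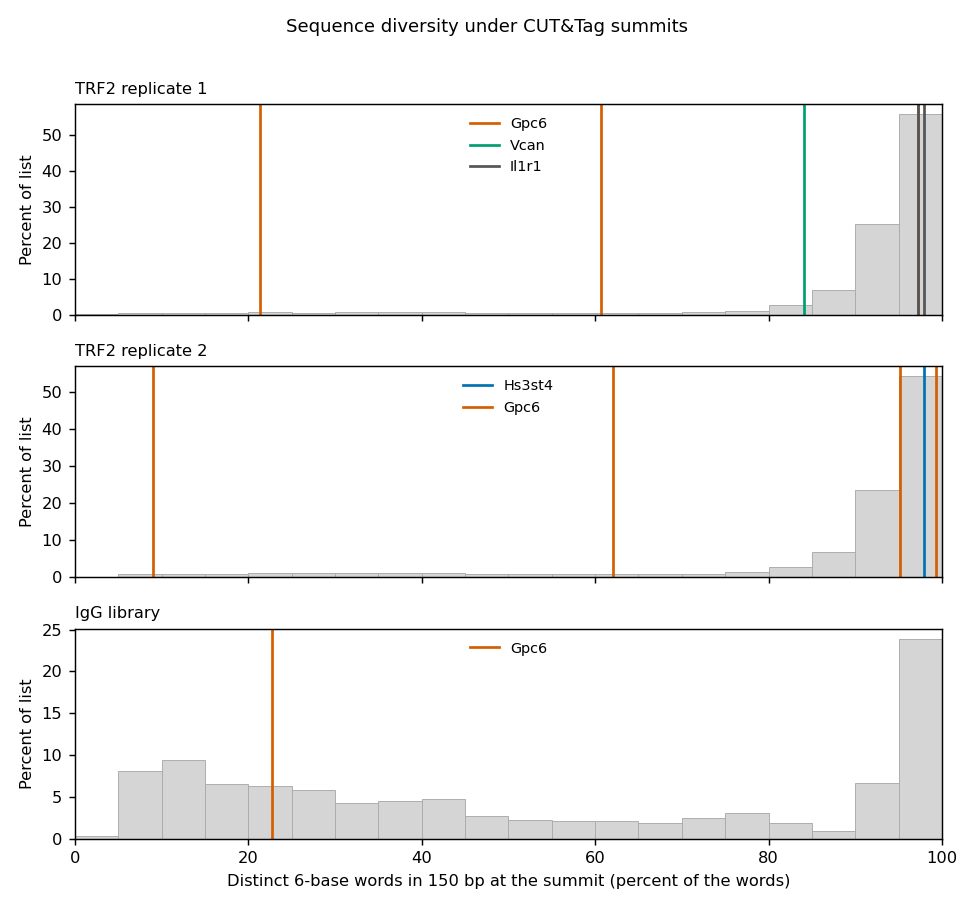
Share of distinct 6-base words in the 150 bases at each CUT&Tag summit (x axis, percent), as the percent of all peaks of that library per bin of 5 (grey bars, y axis), with coloured lines at the peaks of the 5 genes. The shared Gpc6 site sits at 21.4% and 8.97%, far from the median of 95.2% in both TRF2 lists, while both Il1r1 peaks and the Hs3st4 peak sit near it.

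Among the 11 TRF2 peaks, 1 held a G4 pattern, the Gpc6 peak in intron 5 with its longer repeated unit, and the shared region held none. Of all peaks, 25.4% in TRF2 replicate 1 and 20.7% in replicate 2 held the pattern, as did 35.5% of the 7414 regions of both libraries. The windows themselves held 345 such patterns, or 18.3 per 100 kb, with 187 in Gpc6 and 89 in Hs3st4. A single TTAGGG unit lay in 1 of the 11 peaks, the Gpc6 peak in intron 4. At least 1 unit lay in 12.8% of all peaks of TRF2 replicate 1 and 10.3% of those of replicate 2. No window held 2 or more units in a row anywhere, so the 5 genes offered no interstitial telomeric array in this assembly. Among TRF2 regions of the genome 0.472% held 3 or more units.

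Open chromatin was listed at every member. The genome carried between 3.09 and 3.69 ATAC peaks per 100 kb in the 4 libraries, and the members ranged widely around this. Pdgfrb was densest, with 15.02 and 11.3 peaks per 100 kb in Control and 17.5 and 13.8 in TRF2KO. Il1r1 followed with 10.6 and 9.84 in Control and 9.08 in both TRF2KO libraries. Vcan had 2.36 and 3.93 in Control and 3.14 in both TRF2KO libraries. Hs3st4 had 0.658 and 0.877 in Control and 0.658 and 0.438 in TRF2KO, and Gpc6 had 0.458 and 0.641 in Control and 1.19 and 0.641 in TRF2KO. The order of density was therefore Pdgfrb, Il1r1, Vcan and then both long genes. The ranges of Pdgfrb and Il1r1 over the libraries did not overlap, and those of Hs3st4 and Gpc6 did. Among genes with windows of similar length, 92.7% had fewer ATAC peaks than Pdgfrb on average over the 4 libraries, 85.7% fewer than Il1r1, 50% fewer than Gpc6, 42.6% fewer than Vcan and 21.2% fewer than Hs3st4.

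The peaks of the 4 ATAC libraries merged into 51 regions, of which 4 were at Hs3st4, 13 at Gpc6, 4 at Vcan, 15 at Pdgfrb and 15 at Il1r1. Most were intronic (38), 8 were upstream, 3 downstream and 2 had their summit in an exon. There were 13 within 3 kb of an annotated transcript start. A peak was present in all 4 libraries in 26 regions, or 51.0%, beside 50.2% of all 122720 merged regions. Every other region was weak, with folds of at most 7.02.

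Every member had a peak within 1 kb of its start in all 4 libraries, as did 60.6% of protein-coding genes. Peak strength is given as the percentile of the MACS fold in the library's own list. The Control lists are longer than the TRF2KO lists, and a longer list that reaches to weaker peaks raises the percentile of a given peak, so percentiles were also taken after cutting every list to the length of the shortest, a setting added after the data were seen. At Hs3st4 the strongest such peak stood at 66.1 and 71.5 in Control and at 61.9 and 68.8 in TRF2KO. Its summit lay 1235 to 1277 bp inside the gene, in intron 1 and near the start of the antisense gene Gm27040, and a weaker peak lay before the start, with folds of 8.98 and 5.399 in Control and 6.18 and 7.26 in TRF2KO. At Gpc6 the values were 74.7 and 80.2 in Control and 74.1 and 77.9 in TRF2KO, with a peak 2389 to 2717 bp wide. The groups overlapped at both genes.

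At Pdgfrb the start-site peak stood at 87.1 and 87.4 in Control and 84.8 and 83.1 in TRF2KO. At Il1r1 it stood at 84.0 and 85.7 in Control and 81.9 and 83.8 in TRF2KO. Both TRF2KO values were below both Control values at these 2 genes, with differences of -3.32 and -2.03 percentile points (exact two-sided permutation test, p = 0.333 each, the smallest that 2 against 2 libraries allow). The same held for 28.6% of the 13286 genes with a start-site peak in all 4 libraries, and the reverse, seen at 0 of 5 members, for 9.13%. Cutting the lists to equal length changed this result. In lists of equal length the difference was -1.77 at Pdgfrb, where both TRF2KO values were still lower, and -0.23 at Il1r1, where the groups overlapped. That left 1 of 5 members lower and 0 of 5 higher, beside 12.3% and 38.8% of 13224 genes, the reverse of the order above. The folds of the start-site peak overlapped between the groups at every member: at Pdgfrb they were 44.2 and 35.3 in Control and 38.0 and 32.0 in TRF2KO, and at Il1r1 36.1 and 31.3 against 31.6 and 33.4. Over all genes 7.33% had lower and 35% higher folds in both TRF2KO libraries. In these bulk libraries fewer open cells and less opening per cell cannot be told apart. In the full lists the start-site peak of Terf2, the deleted gene, fell from 90.1 and 91.5 in Control to 74.95 and 73.3 in TRF2KO. The part of the deleted DNA itself in this fall was not tested, and no value at equal length is given. It is therefore not a scale for the members.

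Vcan shows how the calling of a peak can set such a value. The strongest peak of the locus lay 3013 bp inside the gene, in intron 1 of Vcan. It was 32 bp from a transcript start of the antisense noncoding gene Gm4117. In Control its fold reached 80.1 and 71.99, in TRF2KO 77.5 and 80.1, the highest of all members. In Control replicate 1 this peak and the one at the gene start were listed as a single peak of 4069 bp, and in Control replicate 2 they were separate, so the strongest peak within 1 kb of the start had a percentile of 94.7 in the first and 72.3 in the second. In TRF2KO the strong peak itself reached to within 1 kb, giving 93.9 and 94.8. The difference of 10.8 percentile points became -0.35 without Control replicate 2. When the strong peak was compared in all libraries, as part of the region that joins both, the percentiles were 94.7 and 95.6 in Control and 93.9 and 94.8 in TRF2KO, and the groups overlapped. The 150 bases at that summit (chr13:89739421-89739570, minus strand) hold CAGCTG at 2 places, in capitals:

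Vcan intron 1, strongest ATAC summit: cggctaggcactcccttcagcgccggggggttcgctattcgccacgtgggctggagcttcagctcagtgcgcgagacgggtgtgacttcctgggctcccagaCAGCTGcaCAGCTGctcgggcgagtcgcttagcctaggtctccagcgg

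**Figure D3:**
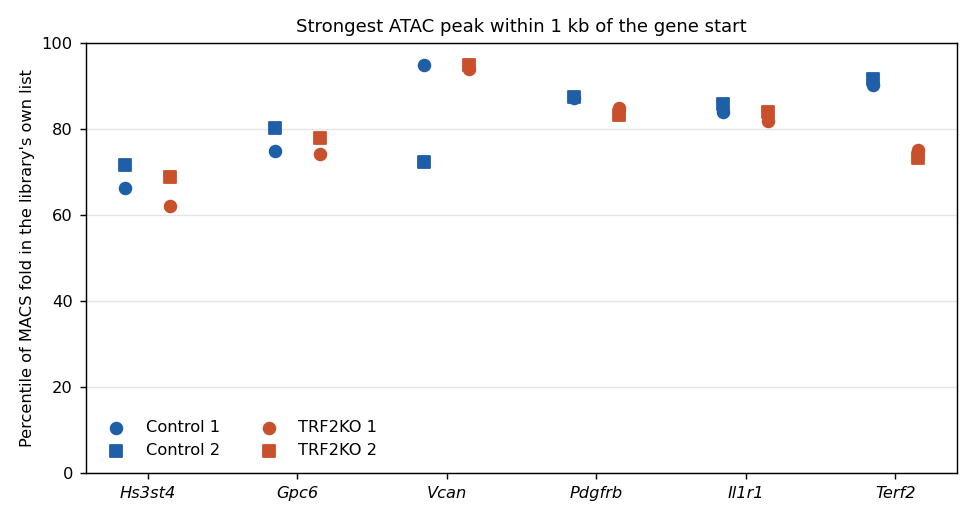
Percentile of the MACS fold, within each library's own list, of the strongest ATAC peak within 1 kb of the start of each of the 5 genes and of Terf2 (y axis), with 1 point per library, Control in blue and TRF2KO in orange. The members lie between 61.9 and 94.8 in both genotypes, and the low Control point of Vcan is the library in which the strong internal peak did not reach to within 1 kb of the start.

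The 26 regions present in all 4 libraries were compared in the same way, and the balance again differed between full lists and lists of equal length. In the full lists both TRF2KO libraries ranked below both Control libraries in 10 of them, and above in 3. Over all 61610 regions present in all 4 libraries the shares were 44.1% and 8.94%. In lists of equal length 25 of the regions kept a peak in all 4, of which 5 were lower and 7 higher in TRF2KO, beside 26.4% and 28.4% of 60705 regions. In the full lists the lower regions were 5 at Il1r1, 2 at Gpc6, 2 at Pdgfrb and 1 at Vcan, and at equal length 2 at Pdgfrb and 1 each at Il1r1, Gpc6 and Vcan. By mean percentile of the full lists the widest differences were in intron 1 of Il1r1, 8368 bp from the start, from 39.0 and 45.3 in Control to 10.6 and 27.1 in TRF2KO, and past the 3′ end of Gpc6, 1056441 bp from its start, from 56.4 and 56.3 to 41.0 and 31.5. At equal length both were still lower in TRF2KO, with 35.3 and 34.7 in Control against 9.89 and 27.1 at the Il1r1 region, and 53.8 and 47.7 against 40.5 and 31.5 at the Gpc6 region. The Il1r1 region holds a TRF2 peak of replicate 1, and the Gpc6 region holds none. The other Il1r1 region with a TRF2 peak, 50402 bp from the start, moved the other way, from 37.5 and 33.6 to 41.0 and 38.8. The strong internal region of Il1r1, 33 bp from the start of another of its transcripts, had folds of 28.5 and 25.9 in Control and 28.6 and 29.7 in TRF2KO, and its percentiles overlapped in the full lists. The higher regions also included 1 in intron 14 of Pdgfrb, with 48.4 and 56.3 in Control and 57.8 and 60.9 in TRF2KO, and the intron 7 region of Gpc6 described above, with 20.2 and 22.6 in Control and 28.9 and 27.1 in TRF2KO. All 3 higher regions were also higher at equal length.

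**Figure D4:**
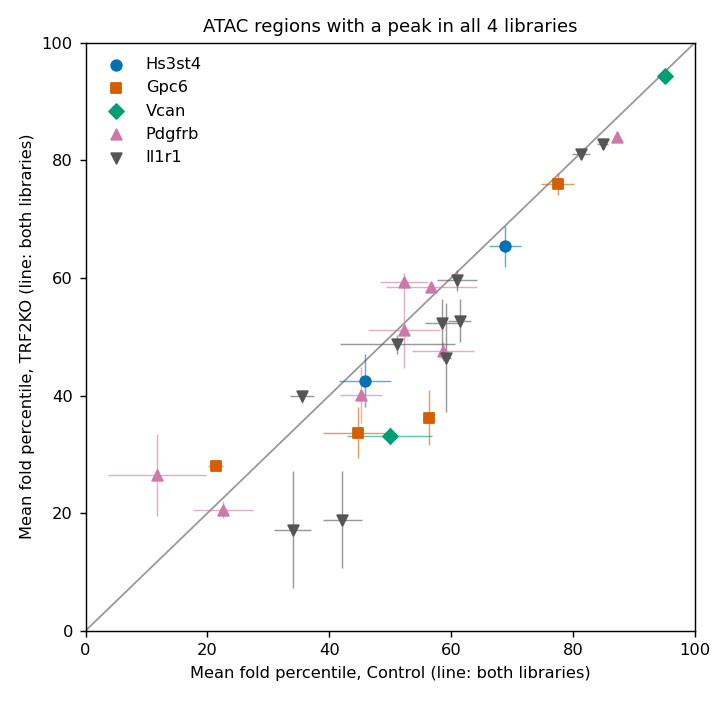
Mean percentile of the MACS fold in Control (x axis) and TRF2KO (y axis) for the 26 ATAC regions at the 5 genes with a peak in all 4 libraries. Each point is a region, lines join the values of both libraries, and the grey diagonal marks equal values. Percentiles are those of the full lists, which are longer in Control. Strong regions lie near the diagonal and the regions farthest below it are 1 of Il1r1 and 1 of Gpc6.

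ATAC peaks at the 5 genes numbered 37 and 38 in Control against 46 and 36 in TRF2KO. The difference of the means was 3.5 peaks, less than the spread between the TRF2KO libraries (SD 7.07, n = 2), with p = 1 by exact two-sided permutation. It was -1.5 without TRF2KO replicate 1. The excess in TRF2KO replicate 1 came largely from Gpc6, with 5 and 7 peaks in Control and 13 and 7 in TRF2KO. Peak numbers at Il1r1 were 14 and 13 in Control and 12 in both TRF2KO libraries, so the groups did not overlap. Such a drop was seen in 17% of the 18339 genes with an ATAC peak in the window, and a rise in 3.32%. Peak numbers overlapped at the other 4 members.

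Base pairs inside peaks summed to 28374 and 27969 in Control and to 31646 and 28460 in TRF2KO, a difference of 1882 (p = 0.333, exact permutation test) that turned to -186 with SEACR and -525 with GoPeaks regions. The direction differed between members, and at no member did the groups overlap. Pdgfrb had 7833 and 6813 bp in Control and 9668 and 10084 bp in TRF2KO, and Gpc6 had 4703 and 5401 bp against 7088 and 5878 bp. Hs3st4 had 1901 and 2448 bp in Control against 1824 and 845 bp, Vcan 4560 and 4245 bp against 4079 and 3614 bp, and Il1r1 9377 and 9062 bp against 8987 and 8039 bp. Thus 3 of 5 members had less and 2 of 5 more in TRF2KO, beside 43.2% and 5.53% of the 18339 genes. The exact permutation test gave p = 0.333 for each, the floor of the design. SEACR regions gave the opposite sign at Pdgfrb, where this caller joined much of the gene into 2 to 3 regions of 27360 to 43351 bp in all, and also at Hs3st4 and Il1r1, by 2315 bp at the latter.

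**Figure D5:**
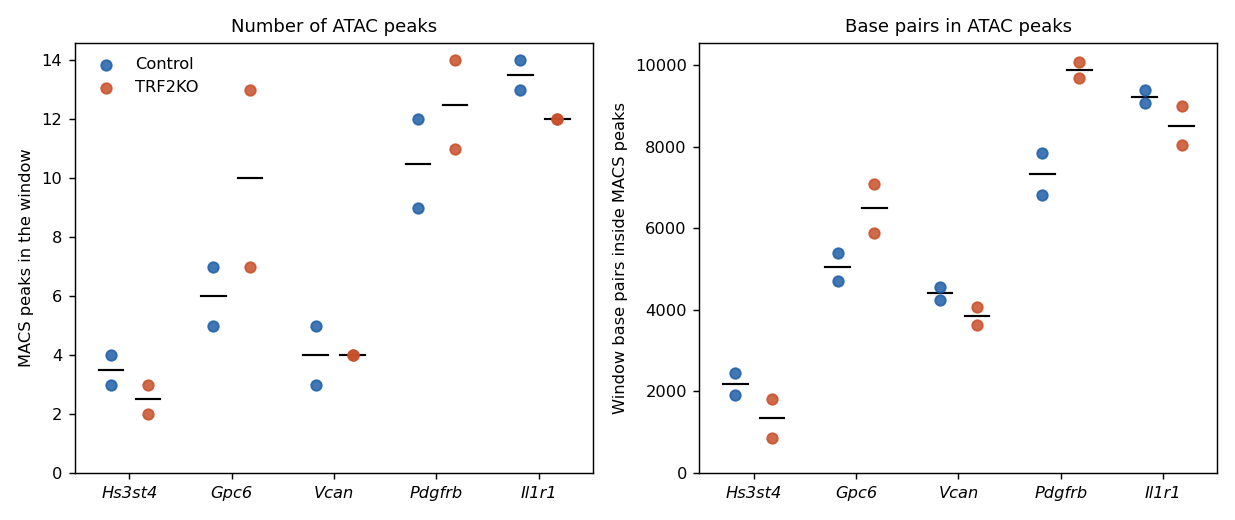
Number of MACS ATAC peaks (left) and window base pairs inside them (right) at each of the 5 genes, with 1 point per library, Control in blue and TRF2KO in orange, and a bar at the mean of 2 libraries. Coinciding points appear as 1. Base pairs are higher in TRF2KO at Gpc6 and Pdgfrb and lower at Hs3st4, Vcan and Il1r1.

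In 6 regions both libraries of one genotype, and no library of the other, listed a peak. The only Control region was in intron 1 of Hs3st4, 216169 bp from the start, with folds of 6.44 and 7.02. It also lay in 2 GoPeaks lists and in the Control consensus list, which combines callers for a genotype. The 5 TRF2KO regions had folds between 2.74 and 4.54. At Gpc6 there were 3, at 13089, 916827 and 984143 bp from the start, and none of them was in a GoPeaks, SEACR or consensus list. At Pdgfrb there were 2, at 1679 and 13484 bp, and both lay inside SEACR regions of all 4 libraries and in both consensus lists. Control-only regions were 1 of 51 at the members and 4.48% of all merged regions, and TRF2KO-only regions 5 of 51 and 1.12%. In the consensus lists the order was the other way: 8 of the 51 regions were in that of Control only, 5 of them at Il1r1, and 1, at Gpc6, in that of TRF2KO only, beside 11.6% and 3.46% of all regions.

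The 51 ATAC regions were searched for the same letters as the TRF2 peaks. A G4 pattern was in 6 of 51 (11.8%, exact 95% interval 4.44 to 23.9), 2 each at Pdgfrb and Il1r1 and 1 each at Gpc6 and Vcan, beside 20.7% of all ATAC regions. The letters TGANTCA were in 13 (25.5%, beside 24.3%), and CAGCTG in 18 (35.3%, 22.4 to 49.9, beside 46.1%). At least 1 TTAGGG unit was in 14 (27.5%, beside 25%), and 2 or more in none. The intervals take regions as independent.

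Relatives of the members gave a wider view of these families. Of 28 listed genes, 10 held a TRF2 region and 20 a peak of either library, beside 41.9% and 66.5% of all protein-coding genes, so the counts are near the background. Among the 3-O-sulfotransferases 3 of 6 held a region, namely Hs3st3a1, Hs3st3b1 and Hs3st5, whereas Hs3st2 had no peak in any of the 7 libraries. Among the other glypicans it was 3 of 5, namely Gpc2, Gpc3 and Gpc5, and all 5 had a start-site ATAC peak in all 4 libraries. Gpc5, the longest of them with a window of 1473 kb, had 1 ATAC peak in each library and 2 peaks in each TRF2 library. None of the 3 hyalectans Acan, Bcan and Ncan, the proteoglycans most like versican, held a region, though each had a peak of 1 or both libraries. In the PDGF family the ligands Pdgfa and Pdgfb held a region. The receptor Pdgfra held none, and its start-site peak stood at 66.6 and 63.7 in Control and 55.7 and 64.9 in TRF2KO. In the interleukin-1 family 2 of 9 held a region: Il1rap, the co-receptor of Il1r1, and Il1rl1, the receptor for interleukin-33. No start-site ATAC peak was listed in any library for 7 of these 9, among them Il1r2, the decoy receptor, and the ligands Il1a and Il1b.

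Other genes start inside the windows. Csf1r, 55448 bp from the start of Pdgfrb, and Cdx1, at -8951 bp from it, had no start-site ATAC peak in any library. Il1rl2, 99530 bp from the start of Il1r1, had one with folds of 7.13 and 9.36 in Control and 7.78 and 7.94 in TRF2KO. Peaks near it and near Gm4117 and Gm27040 cannot be assigned to the members by position alone.

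Markers were read as start-site peaks. By the study's methods MuSCs were sorted as negative for CD45, CD31, CD11b and Sca1 and positive for α7-integrin with VCAM or CD34, a gate set against blood, endothelial and fibro-adipogenic cells. All 8 MuSC markers, Pax7 among them, had one in each library, with median percentiles of 88.8 to 92.0. Of 8 pericyte and smooth muscle markers 7 or 8 had one, with medians of 70.9 to 78.5 (a gene without a peak counted as 0). Of 8 markers of fibro-adipogenic progenitors 6 or 7 had one, with lower medians of 40.1 to 54.1. Of 8 endothelial markers 5 to 7 had one, with medians of 31.9 to 37.6. Of 8 immune markers only Cd68 had one, and the pan-leukocyte gene Ptprc had none, nor had endothelial Emcn. An open start does not show that a gene is active. The part of other cells in the peaks at Pdgfrb was not tested.

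The genes most like each member were sought by the sum, over the 7 libraries, of absolute differences in log2(1 + peaks per 100 kb). For Hs3st4 they were Grin2b and Gabrb1 (sums of 0.52 and 0.59), for Gpc6 Unc5c and Supt3 (0.88 and 0.89), for Vcan Loxl2 and C530008M17Rik (0.31 and 0.45), for Pdgfrb Tmem52 and Ttc30a1 (0.26 and 0.27), and for Il1r1 Ak3 and Tmed10 (0.20 and 0.40). The sums describe numbers of peaks, not where in the gene they lie.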

How the data were processed

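The data were peak lists of the 7 libraries. By the study's methods and the submitters' processing notes, reads were aligned to mm10 with Bowtie2 (per the notes 2.4.4 for CUT&Tag and 2.5.4 for ATAC; the methods name another version for CUT&Tag), and filtered with Picard 3.1.1 and SAMtools 1.10. The methods, which describe both assays under CUT&Tag, name MACS3 (per the notes 3.0.0 for CUT&Tag and 3.0.2 for ATAC), SEACR 1.3 and GoPeaks, joined into a consensus with DiffBind 3.10.1. The lists used here were MACS for CUT&Tag and all of these for ATAC. Whether ATAC reads were shifted for the transposase, and whether IgG entered the calling, is not given in the sources used here, so summits may be off by a few bases. The deposited MACS lists hold the authors' fold enrichment (a ratio), -log10 p and -log10 q. The score deposited in the MACS and consensus lists was not used, nor was the SEACR signal deposited by the authors. Consensus lists are named by genotype, not by library, and served only for overlap. Depth is known only through the lists: MACS gave 89160 and 100521 peaks in Control, 84776 and 84102 in TRF2KO, 12290 and 15479 in TRF2 and 656 in IgG. A peak missing from a list did not pass its threshold there.

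Peaks on chromosomes 1 to 19, X and Y were intersected by at least 1 bp with GENCODE M21 genes and 20 kb either side, and sequence was read from GRCm38. Control and TRF2KO were compared by exact two-sided permutation over 6 assignments. Shares carry exact Clopper-Pearson intervals. Python 3.11.15, numpy 2.4.6, pandas 2.3.3, scipy 1.17.1 and pysam 0.24.0 were used, and the counting was tested on simulated data. Named are the 5 genes, genes starting in their windows, 28 listed relatives and the 2 most alike genes of each. Alternatives were stricter q, equal list length, other callers, other flanks, other overlap and motif rules, leaving out each library, and a replicate block. Members and lists were chosen with earlier results of these data known. The measures of repeats and the searches for TGANTCA and CAGCTG were chosen after the peaks were seen. The sequence of the IgG peak is not reported here.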

Additional observations from a re-analysis of the deposited data

How the results depend on the processing

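The peak number at the 5 genes was not stable. The difference of 3.5 became -0.5 with a -log10 q of at least 5 and -2.5 with GoPeaks regions, and ranged from -1.5 to 8.5 when single ATAC libraries were left out, the lowest without TRF2KO replicate 1 and the highest without TRF2KO replicate 2. Base pairs in peaks, 1882 more in TRF2KO, became -186 with SEACR and -525 with GoPeaks, and ranged from 289 to 3475 without single libraries, lowest and highest without the same libraries. With SEACR the differences were 65 bp at Hs3st4, -1971 bp at Pdgfrb and 2315 bp at Il1r1, opposite to MACS, and the cause was not tested. Each member kept its direction in base pairs under the other alternatives run.

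Start-site percentiles of Pdgfrb and Il1r1 had a lower mean in TRF2KO under every alternative run, but in lists of equal length, a setting chosen after seeing the data, Il1r1 overlapped, Hs3st4 and Gpc6 turned to 0.20 and 1.09, and only 1 member was lower in both TRF2KO libraries. Ranking by -log10 p gave the values of ranking by fold. That of Vcan, 10.8 higher, was -0.82 within 3 kb of any transcript start and -0.35 (without Control replicate 2) to 22.0 (without Control replicate 1). Those of Hs3st4 and Gpc6 ranged from -6.90 to 0.0087 and from -4.26 to 1.27 without single libraries, and turned positive without TRF2KO replicate 1 (0.0087 and 0.38) and, at Gpc6, without Control replicate 2 (1.27). Members with both TRF2KO values lower numbered 2 with all 4 libraries. The number rose without Control replicate 1 or TRF2KO replicate 2, where fewer values have to be lower. No share of all genes was taken for those settings.

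Regions of 1 genotype numbered 6, in the full lists and in lists of equal length (1 Control, 5 TRF2KO in each). They numbered 4 when no caller was allowed a region in the other genotype (1 Control, 3 TRF2KO). With a -log10 q of at least 5 they numbered 3 (1 Control, 2 TRF2KO), and with SEACR 0. GoPeaks gave 4, of which 3 were Control regions. The TRF2 region and the 1 member holding it became 10 regions at 4 members with a peak in either library, 0 and 0 with a -log10 q of at least 5, and 0 and 0 when peaks had to overlap by 50% of both. With TRF2 replicate 2 alone there were 5 regions at 2 members, and with replicate 1 alone 6 at 3. Shares of all protein-coding genes were taken only for regions of both libraries (41.9%) and for a peak in either (66.5%). The member counts under the other rules therefore have no background beside them. Regions with a G4 pattern rose from 6 to 13 of 51 (25.5%) with loops of up to 12 bases. Over all ATAC regions the share rose as well, from 20.7% to 31%.

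Replicate numbers gave no sign of pairing (r = 0.01 between deviations of same-numbered libraries over 61610 regions). With the replicate block the differences stayed 3.5 peaks (p = 1, exact permutation within pairs) and 1882 bp (p = 0.5, the smallest possible). In the full lists 4 members were lower in both paired comparisons of start-site percentile. The share of all genes under this easier rule was not taken, so the count has no background beside it.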
